A study of Mus musculus with 4 samples.

Results

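Paired immunoglobulin-like receptors, Siglecs and their signalling partners were compared between 2 sorted macrophage subsets of the mouse dermis, CX3CR1bright and CX3CR1low. The set was chosen by gene symbol and held 35 genes, of which 32 had a row of their own on the array among 22180 genes in all. These were 11 activating receptors, 12 inhibitory receptors, 3 receptors of other or mixed kind, the 2 ligands Cd47 and Cd200, the kinase gene Syk, the 2 phosphatase genes Inpp5d and Ptpn6, and the adaptor gene Stap1. Lilrb3 is listed on the array as Pirb and was matched through its Entrez identifier. Lilra6 and Pira2 share 1 row with other genes of their family and were left out, and Lyn was not analysed here.

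All samples came from ear skin of untreated adult C57Bl/6 mice of genotype Cx3cr1+/gfp, kept free of specific pathogens and not ear-clipped. In these animals GFP takes the place of 1 Cx3cr1 allele, so every array, CX3CR1low included, represents mice with 1 working copy of that gene. Each subset was sorted from 2 independent litters, with 3 to 6 mice pooled per sample, which gave 2 arrays per subset. A pool averages over its mice, so the spread between arrays is that between pools. Levels are log2 values made with RMA, a method that corrects background, equalises the arrays and summarises the probes of a transcript.

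Paired receptors are families of closely related surface proteins that sit side by side in the genome and send opposite signals. The inhibitory members carry a tyrosine motif called ITIM in their tails, or a similar docking site, and recruit phosphatases such as SHP-1, encoded by Ptpn6, and SHIP-1, encoded by Inpp5d. The activating members have short tails and borrow the ITAM motif of the adaptors DAP12, encoded by Tyrobp, or FcR gamma, encoded by Fcer1g, through which they engage the kinase Syk. Siglecs bind sialic acid on cell surfaces, and most of them are inhibitory. On macrophages these receptors set how strongly the cell responds to microbes, dying cells and healthy neighbours.

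The genes of these families lie in clusters. By the RefSeq gene table of GRCm38.p6, 9 of the 35 are on chromosome 7, 7 Cd300 genes are on chromosome 11 and 5 Trem-type genes are on chromosome 17. Promoter windows of 300 bases, from 250 before to 50 after the start, were at hand in RefSeq (GRCm38.p6) for 27 of the 35 genes. The first 3 windows are shown because their genes had some of the highest differences between the subsets, Pilrb1 because it is the activating neighbour of Pilra, and Lilrb3 because it is an inhibitory receptor with the opposite sign. Capitals mark the 6 letters GAGGAA, the core of the sites of the myeloid factor PU.1, or TTCCTC where the word lies on the other strand. The windows are at chr7:4237504-4237803 (plus strand) for Lilra5, chr11:115001831-115002130 (minus) for Cd300c2, chr5:137836229-137836528 (minus) for Pilra, chr5:137858000-137858299 (minus) for Pilrb1 and chr7:3720333-3720632 (minus) for Lilrb3.
Lilra5: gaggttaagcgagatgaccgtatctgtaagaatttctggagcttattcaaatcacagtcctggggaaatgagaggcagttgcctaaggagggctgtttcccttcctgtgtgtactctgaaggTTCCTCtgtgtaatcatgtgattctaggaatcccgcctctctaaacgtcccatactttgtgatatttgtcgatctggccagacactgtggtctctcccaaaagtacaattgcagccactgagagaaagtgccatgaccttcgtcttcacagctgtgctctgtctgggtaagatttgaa
Cd300c2: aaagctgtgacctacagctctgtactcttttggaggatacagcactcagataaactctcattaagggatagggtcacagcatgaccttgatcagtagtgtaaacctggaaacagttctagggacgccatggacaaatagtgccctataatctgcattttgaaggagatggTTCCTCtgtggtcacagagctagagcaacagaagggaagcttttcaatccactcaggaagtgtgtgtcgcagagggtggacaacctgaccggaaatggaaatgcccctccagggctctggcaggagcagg
Pilra: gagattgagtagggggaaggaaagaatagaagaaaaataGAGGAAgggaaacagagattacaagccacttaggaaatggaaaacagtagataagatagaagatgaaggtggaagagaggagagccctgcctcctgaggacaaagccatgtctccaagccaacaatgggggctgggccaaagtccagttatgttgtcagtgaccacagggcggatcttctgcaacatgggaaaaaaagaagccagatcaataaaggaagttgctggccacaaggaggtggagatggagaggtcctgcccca
Pilrb1: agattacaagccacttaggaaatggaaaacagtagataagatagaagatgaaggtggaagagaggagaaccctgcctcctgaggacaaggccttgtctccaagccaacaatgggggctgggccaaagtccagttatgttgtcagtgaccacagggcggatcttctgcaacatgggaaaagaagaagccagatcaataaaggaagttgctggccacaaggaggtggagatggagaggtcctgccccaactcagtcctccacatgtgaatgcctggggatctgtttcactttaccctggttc
Lilrb3: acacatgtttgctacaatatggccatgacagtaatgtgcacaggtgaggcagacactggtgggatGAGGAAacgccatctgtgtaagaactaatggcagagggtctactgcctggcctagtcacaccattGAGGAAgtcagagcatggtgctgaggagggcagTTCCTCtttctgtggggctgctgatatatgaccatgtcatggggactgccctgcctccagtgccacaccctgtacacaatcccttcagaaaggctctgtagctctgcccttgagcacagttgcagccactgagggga

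GAGGAA was found on either strand in 18 of the 30 windows of these genes (60%, some genes having more than 1 window) and in 28.3% of all 32851 windows. It was 1 of 7 words searched, 4 of them overlapping versions of the same core. The longer word AGGAAGT was in 13 of the 30 windows and in 9.35% of all. TGACTCA, the word of AP-1 factors, was in 0 of the 30 and in 5.2% of all. At that share few matches are expected in 30 windows, so the 0 is not read as a lack. Some paralogs had nearly the same window, so their matches are not independent: the Pilrb1 and Pilrb2 windows, with AGGAAGT but not GAGGAA, were 97.3% identical. Those of Lilra6 and Pira2, with both words, were 95% identical. Other pairs were less alike end to end, such as Lilra5 and Lilrb3 at 48.6% and Cd300c and Cd300c2 at 46.4%. The part of common origin in the counts was not tested. Pilra and Pilrb1 were 68.4% identical when aligned end to end (242 identical bases over an alignment of 354). The windows are offset: the Pilrb1 window begins with a stretch that lies inside the Pilra window, past its GAGGAA. The overhanging ends therefore lower this identity. GATAAG and AGGAAGT lie in the shared stretch of both windows, so these matches are not independent either. GAGGAA lies in the part of the Pilra window that the Pilrb1 window does not cover, so its absence there shows no difference between the promoters. GAGGAA was present both in windows of genes with positive differences, such as Lilra5, and in that of Lilrb3, whose difference was negative. A match is a string of letters, not a measured site.

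Cx3cr1, the gene that defined the gate, followed the labels. It stood at 3.63 and 3.60 on the CX3CR1low arrays and at 8.42 and 8.44 on the CX3CR1bright arrays. Neither CX3CR1low array was above its own median, so with those medians as a floor the mean level was at least 27.2-fold higher in CX3CR1bright cells. It is given as a check of the labels without a test. The 14 macrophage markers with a row, among them Adgre1, Csf1r and Mertk, lay above the array median on all 4 arrays, with mean levels of 10.3 to 10.5. Keratinocyte markers (11 of 12 with a row) had mean levels of 5.76 and 5.24 on the CX3CR1low arrays and 6.15 and 7.73 on the CX3CR1bright arrays, and their summed linear level ran from 902 to 1307 and from 1730 to 3943. Langerhans cell markers (7 of 8) had means of 6.03 and 5.79 against 6.72 and 7.64, with summed levels of 961 to 973 and of 1583 to 2554, and fibroblast markers (10 of 10) had means of 5.81 and 5.72 against 6.59 and 6.77, with summed levels of 1249 to 1695 and of 2528 to 2907. CX3CR1bright replicate 2 thus stood apart in keratinocyte transcripts. Array medians were 3.65 to 3.68, and a level near them can be background. In sorted bulk samples, fewer cells of a type and less RNA per cell cannot be told apart.

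**Figure D1:**
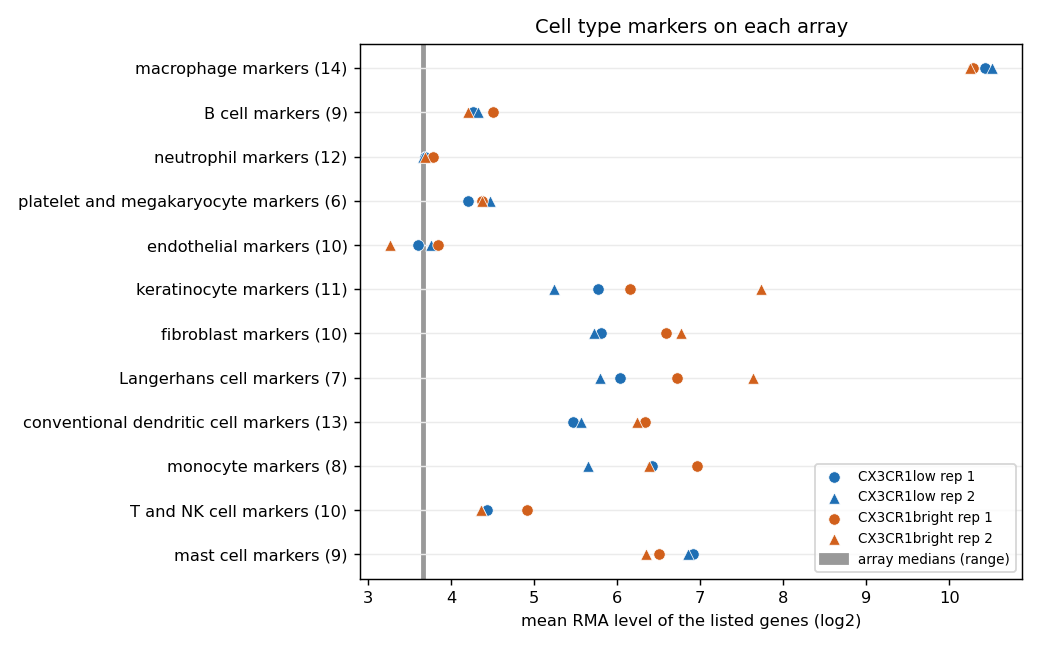
Mean RMA level (log2) of each cell type marker list on the 4 arrays, with the number of genes that had a row in brackets; blue is CX3CR1low, orange CX3CR1bright, circles replicate 1 and triangles replicate 2, and the grey band spans the array medians. Keratinocyte markers reach 7.73 on CX3CR1bright replicate 2 and 6.15 or less on the other arrays, while neutrophil markers lie near the array medians on all arrays.

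A difference below is the CX3CR1bright mean minus the CX3CR1low mean, in log2 units, with its moderated SE from 2 arrays per subset. Of the 29 genes bright enough to test, 1 was past the threshold (limma, adjusted p under 0.05 over all 13133 tested genes), where 0.137% of all tested genes were. It was Stap1, which was higher in CX3CR1bright cells (1 of 29 higher and 0 lower, beside 0.0609% and 0.0761% of all tested genes). Of the 29, 23 were above the array median on all 4 arrays, 5 (Lilra5, Cd300e, Treml4, Pilrb1 and Cd300lf) on both CX3CR1bright arrays but on 1 CX3CR1low array, and Siglecg on 1 array of each subset. Among all 32 genes with a row, dim ones included, 19 had a positive difference (59.4%, beside 46.1% of all 22180 genes), with a median of 0.16 beside -0.032. An unadjusted p under 0.05 was found for 11 of the 29, 6 higher and 5 lower, beside 7.03% and 11.8% of all tested genes. The 2 subsets did not overlap for 10 genes that were higher in CX3CR1bright and 9 that were lower, where 18.9% and 31.5% of all tested genes had such groups (50.4% in either direction). At least a 2-fold difference with no overlap was seen for 6 higher genes (Lilra5, Stap1, Pilra, Lair1, Cd300c2 and Trem1) and 1 lower gene (Cd200r1), beside 2.94% and 2.89% of all tested genes. Trem3, Pilrb2 and Treml2 were too dim to test, with all 4 levels below the array medians.

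**Figure D2:**
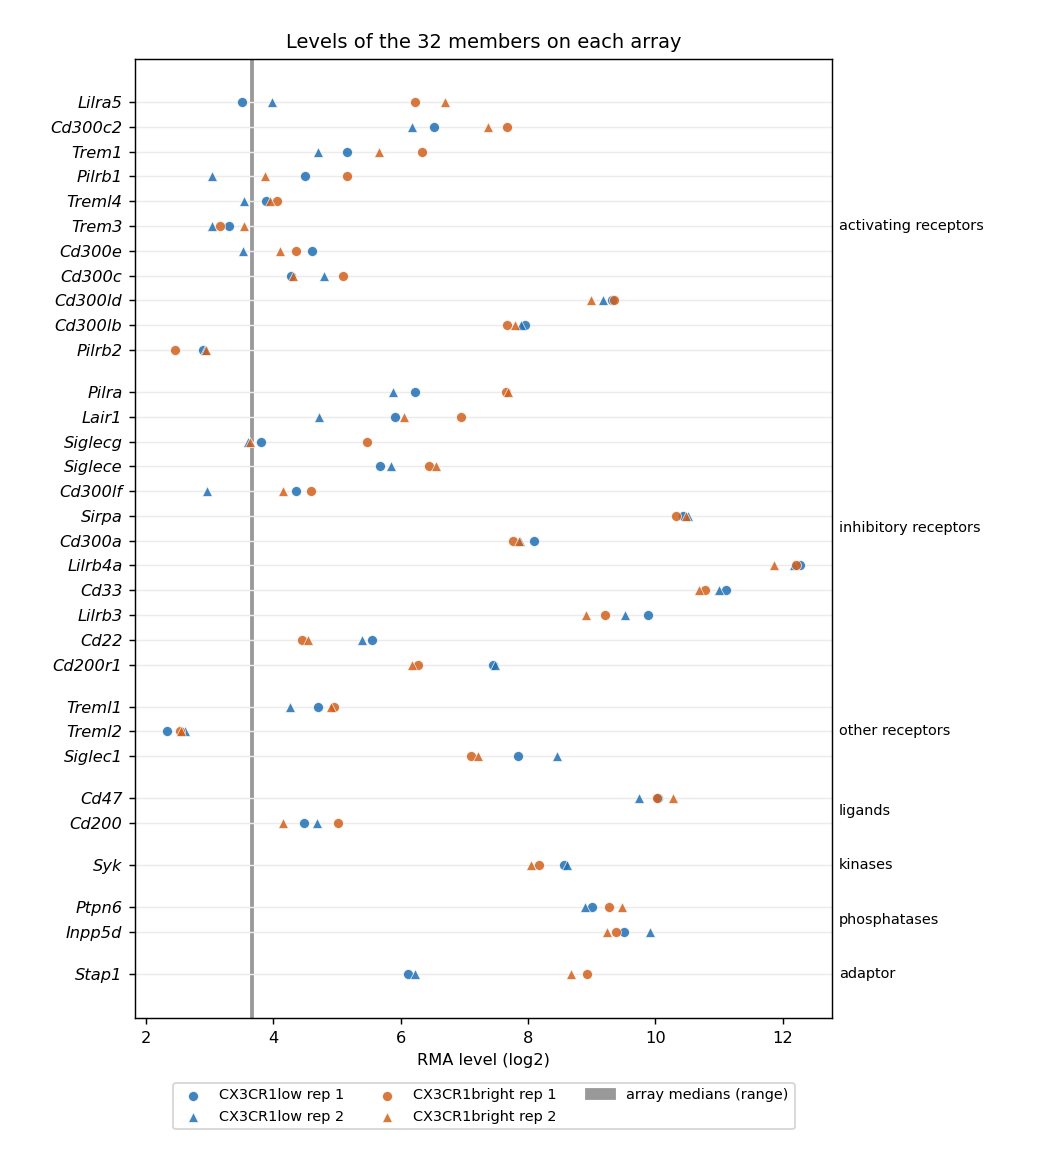
RMA level (log2) of each of the 32 genes on each array, ordered by class and by difference; blue is CX3CR1low, orange CX3CR1bright, circles replicate 1 and triangles replicate 2, and the grey band spans the array medians of 3.65 to 3.68. Lilra5, Pilra and Stap1 have orange points well to the right of the blue ones, Cd200r1, Cd22 and Siglec1 well to the left, and Sirpa, Lilrb4a and Cd300ld have all 4 points close together.

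Among activating receptors, Lilra5 had the largest difference. Lilra5 belongs to the leukocyte immunoglobulin-like receptors and in humans is an activating receptor of monocytes that pairs with FcR gamma. Its level was 3.51 and 3.98 in CX3CR1low cells and 6.23 and 6.69 in CX3CR1bright cells. CX3CR1low replicate 1 was below its array median and replicate 2 just above it, and the CX3CR1bright levels were clear of it on both arrays. With the array median as a floor, the level was at least 6.18-fold higher in CX3CR1bright cells. The fitted difference, taken partly against background, was 2.71 ± 0.27 (SE, n = 2 per subset) and did not pass (adjusted p = 0.0541, limma; 0.0150 to 0.341 over 13 alternative settings).

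Cd300c2, an activating Cd300 receptor that pairs with ITAM adaptors, stood at 6.53 and 6.18 in CX3CR1low and at 7.68 and 7.37 in CX3CR1bright cells. The groups were separate, by 1.17 ± 0.23 or 2.25-fold (limma adjusted p = 0.107). Trem1, which amplifies inflammatory responses through DAP12, was at 5.16 and 4.70 against 6.33 and 5.66. These groups did not overlap either, but the 1.07 ± 0.31 between them did not pass (limma adjusted p = 0.176), and without CX3CR1low replicate 1 and without CX3CR1bright replicate 1 it was 1.30 and 0.73.

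For Pilrb1, the DAP12-coupled partner of Pilra, the levels were 4.50 and 3.05 in CX3CR1low and 5.16 and 3.88 in CX3CR1bright cells, so the subsets overlapped. Its difference of 0.75 ± 0.62 was near the SE (limma adjusted p = 0.575), and with 1 array left out it ran from 0.025 without CX3CR1low replicate 2 to 1.48 without CX3CR1low replicate 1. Cd300lb was at 7.95 and 7.90 in CX3CR1low and at 7.67 and 7.80 in CX3CR1bright cells, a difference of -0.19 ± 0.18 that did not pass (limma adjusted p = 0.631) although the groups lay 0.099 apart. The groups overlapped for Cd300ld, which differed by -0.073 ± 0.21, and for Cd300c, by 0.16 ± 0.34. Cd300e, known from monocytes, differed by 0.17 ± 0.38 and Treml4, a receptor of myeloid cells that binds dying cells, by 0.29 ± 0.21, both with 1 CX3CR1low array below the median and only Treml4 without overlap. The 95% intervals were -0.66 to 0.27 for Cd300lb and -0.61 to 0.47 for Cd300ld, and they bound the shifts that these arrays leave possible. Cd300 genes are similar in sequence, as are the Pilr genes, and their probes may not separate them fully.

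Of the 12 inhibitory receptors, 5 had a positive difference, a share near the 42.5% of all tested genes, and 0 were past the threshold (limma; 5 at an unadjusted p under 0.05, beside 18.8% of all tested genes). Pilra, the inhibitory partner of Pilrb1, had the largest positive difference among them, with levels of 6.22 and 5.88 in CX3CR1low and 7.66 and 7.69 in CX3CR1bright cells. Both CX3CR1bright arrays lay far above both CX3CR1low arrays. The difference was 1.62 ± 0.21, 3.08-fold (limma adjusted p = 0.0706; 0.0219 to 0.429 over 13 alternative settings). Whether Pilra differs from its activating partner Pilrb1 in its shift was not tested.

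Siglece, an inhibitory sialic acid receptor of mouse neutrophils and macrophages, was at 5.68 and 5.85 against 6.45 and 6.55. The subsets were separate, by 0.74 ± 0.19 or 1.67-fold (limma adjusted p = 0.152). Lair1, the inhibitory receptor for collagen, was at 5.91 and 4.73 in CX3CR1low and at 6.95 and 6.05 in CX3CR1bright cells, which left a gap of 0.14 between the groups. It differed by 1.18 ± 0.49 (limma adjusted p = 0.285), and by 0.59 without CX3CR1low replicate 2.

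Cd200r1, which restrains macrophages when it binds Cd200 on neighbouring cells, had the largest negative difference of the listed receptors. Its level was 7.46 and 7.49 in CX3CR1low and 6.27 and 6.18 in CX3CR1bright cells. Replicates lay 0.027 and 0.094 apart, and the subsets were 1.19 apart at their closest. The difference was -1.25 ± 0.18, 2.37-fold (limma adjusted p = 0.0830; 0.0248 to 0.456 over 13 alternative settings).

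The Siglec gene Cd22, best known as an inhibitory receptor of B cells, was at 5.55 and 5.40 in CX3CR1low and at 4.45 and 4.55 in CX3CR1bright cells. Both CX3CR1low arrays were above both CX3CR1bright arrays, by -0.97 ± 0.19 when taken as CX3CR1bright minus CX3CR1low (limma adjusted p = 0.104). B cell markers (9 of 10 with a row) had mean levels of 4.27 and 4.33 in CX3CR1low and 4.51 and 4.20 in CX3CR1bright cells, with summed linear levels of 971 to 1099 and of 662 to 1010. Of the 5 tested, 4 had a negative difference, all with overlap, beside 42.5% positive of all tested genes. At an unadjusted p under 0.05 (limma) were 0 of the 5. The remaining 1, Ebf1, was higher in CX3CR1bright cells without overlap, at 4.12 and 3.96 against 4.25 and 4.57. Over all 9 rows, 5 differences were positive and 4 negative. Ighm was at 9.95 and 9.73 against 9.78 and 9.11 and Cd79b at 5.01 and 5.08 against 5.50 and 3.44, whereas Cd79a and Ms4a1 were below the median on every array. The part of B cells in the Cd22 values was not tested. Siglecg, the other B cell Siglec, was at 3.81 and 3.61 in CX3CR1low cells and at 5.48 and 3.63 in CX3CR1bright cells, so that 1 array alone was clear of background. It differed by 0.85 ± 0.60 (limma adjusted p = 0.511), and by -0.080 without CX3CR1bright replicate 1.

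Lilrb3, also called PIR-B, the inhibitory partner of the Pira receptors, was at 9.88 and 9.52 in CX3CR1low and at 9.21 and 8.91 in CX3CR1bright cells. The groups did not overlap, with a difference of -0.64 ± 0.23 (limma adjusted p = 0.229). Lilrb4a, a related ITIM receptor, reached 12.3, 12.2, 12.2 and 11.9 on CX3CR1low replicates 1 and 2 and CX3CR1bright replicates 1 and 2, and differed by -0.19 ± 0.21. Cd33, a Siglec of myeloid cells whose mouse form differs from the human one in its tail, was 11.11 and 11.01 against 10.78 and 10.69, a difference of -0.32 ± 0.18. Cd33 was counted as inhibitory here, although its motifs were not read.

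Sirpa, the receptor that binds Cd47 as a signal against being eaten, had levels of 10.4, 10.5, 10.3 and 10.5 in the same order, the lowest and highest array being 0.18 apart. The 95% interval of its difference was -0.54 to 0.40. Cd300a, an inhibitory receptor for phosphatidylserine, differed by -0.17 ± 0.19. Cd300lf, a Cd300 receptor with ITIM motifs, differed by 0.72 ± 0.49 with overlapping groups, and by 0.019 without CX3CR1low replicate 2.

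Over the 11 activating receptors with a row, 8 differences were positive and 3 negative, with a median of 0.18, and over the 12 inhibitory receptors the median was -0.12, beside -0.032 over all 22180 genes. The median over the 9 tested activating receptors, 0.29, is a description alone, since 4 of them (Lilra5, Cd300e, Treml4 and Pilrb1) were above the array median on both CX3CR1bright arrays but on 1 CX3CR1low array. At an unadjusted p under 0.05 were 3 activating receptors, all higher in CX3CR1bright (Lilra5, Cd300c2 and Trem1), and 5 inhibitory ones, 2 higher (Pilra and Siglece) and 3 lower (Cd200r1, Cd22 and Lilrb3), beside 7.03% higher and 11.8% lower of all tested genes. Each gene's deviation from its own mean over the 4 arrays had a median in the activating class of 0.032 and -0.62 on CX3CR1low replicates 1 and 2 and of 0.47 and -0.031 on CX3CR1bright replicates 1 and 2. In that class CX3CR1low replicate 1 and CX3CR1bright replicate 2 were therefore close together. In the inhibitory class the medians were 0.17, 0.0080, -0.017 and -0.12. The median over the 9 was 0.71 without CX3CR1low replicate 1 and 0.11 without either CX3CR1low replicate 2 or CX3CR1bright replicate 1.

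**Figure D3:**
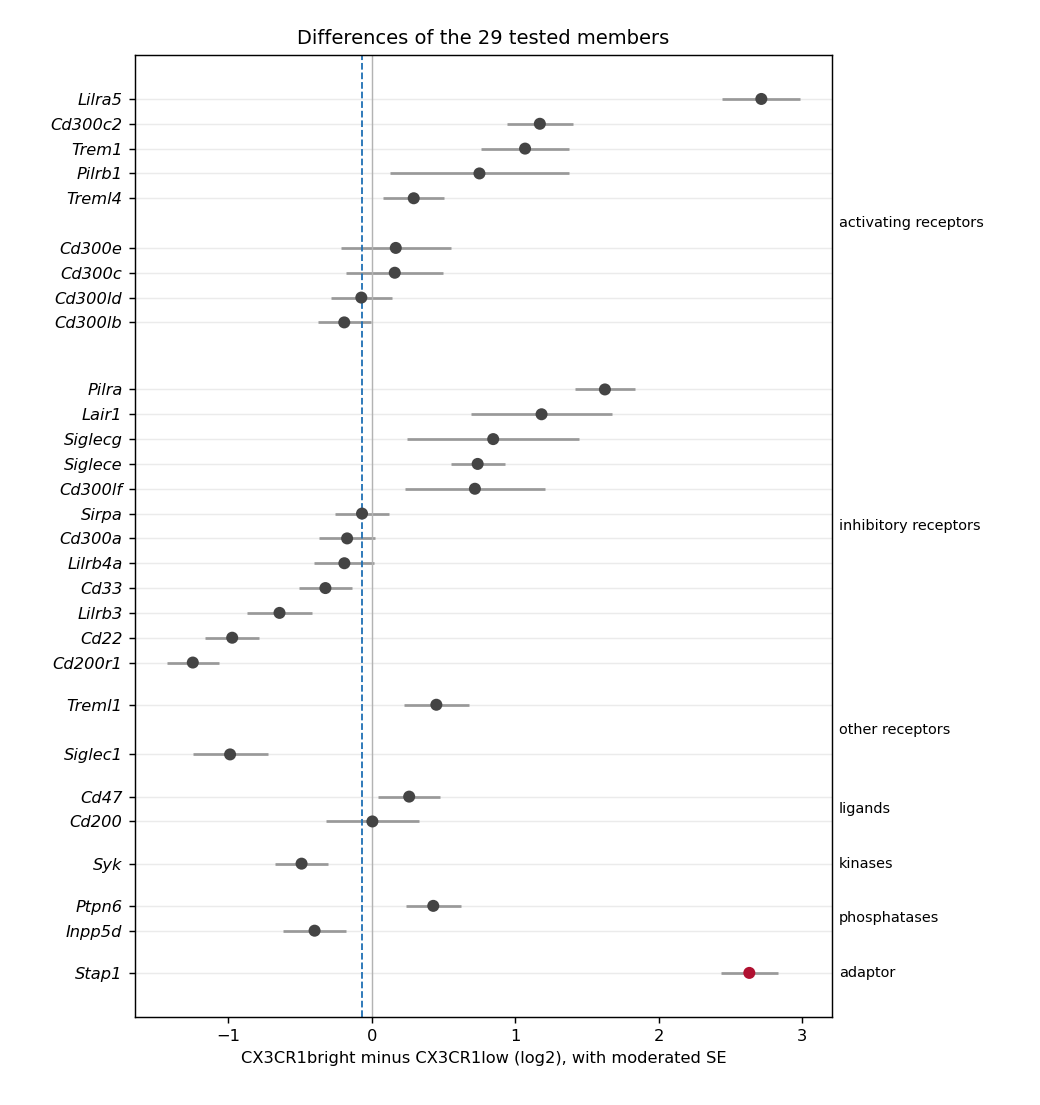
Difference between the subsets (CX3CR1bright minus CX3CR1low, log2) of the 29 tested genes by class, with the moderated SE as bars; red marks an adjusted p under 0.05 and the dashed line is the median of all tested genes, -0.070. Stap1 is the 1 red point, activating receptors run from -0.19 to 2.71 and inhibitory receptors from -1.25 to 1.62.

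Several receptors were lower on CX3CR1low replicate 2 than on the other CX3CR1low array, and higher on CX3CR1bright replicate 1 than on CX3CR1bright replicate 2. Lair1, Pilrb1, Cd300lf, Trem1, Cd300c2 and Treml4 were among them. In all, 13 of the 29 genes had replicate 1 above replicate 2 in both subsets, beside 26.5% of all tested genes. Monocyte markers (8 of 9 with a row) had mean levels of 6.42 and 5.65 on the CX3CR1low arrays and of 6.97 and 6.39 on the CX3CR1bright arrays, with summed linear levels of 2188 to 2487 and of 2906 to 3021. Ly6c2, the classical monocyte marker, was at 7.54 and 3.90 and at 6.89 and 4.66, whereas Ccr2 was at 5.18 and 5.02 and at 7.19 and 6.80. Of the 8, 7 had a positive difference and 1 a negative one, beside 42.5% positive of all tested genes. Without overlap 5 were higher in CX3CR1bright cells, and 4 were higher at an unadjusted p under 0.05 (limma), beside 18.9% and 7.03% of all tested genes. The part of monocytes in the receptor values was not tested. Neutrophil markers (12 of 12) had means of 3.66 to 3.69 in CX3CR1low and of 3.69 to 3.79 in CX3CR1bright cells. Their summed levels were 516 to 531 and 267 to 404, and Ly6g was below the median on all arrays. Csf3r, the brightest of the 12, weighs most in that sum, at 8.67 and 8.74 against 8.14 and 7.18. S100a9 went the other way, at 2.84 and 3.17 against 4.41 and 3.65. Over all 12 rows, 6 differences were positive and 6 negative. The part of neutrophils in the receptor values was not tested.

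Of the receptors of other kind, Siglec1, the sialoadhesin of tissue macrophages, which lacks an ITIM and binds sialylated cells and particles, was lower in CX3CR1bright cells without passing the threshold. It stood at 7.85 and 8.46 in CX3CR1low and at 7.11 and 7.22 in CX3CR1bright cells. The groups were separate by 0.63 at their closest, and the difference was -0.99 ± 0.26, 1.98-fold (limma adjusted p = 0.156). Other genes too had lower levels in CX3CR1bright cells, as Cd200r1, Cd22, Lilrb3 and Siglec1 did. Beside the counts that follow, 42.5% of all tested genes had a positive difference, 31.5% were lower without overlap and 11.8% were lower at an unadjusted p under 0.05 (limma). Mast cell markers (9 of 9 with a row) had mean levels of 6.91 and 6.86 in CX3CR1low and 6.50 and 6.34 in CX3CR1bright cells, summed levels of 1978 to 2027 and of 1534 to 1634, and negative differences for 7 of 8 tested, 3 of them at an unadjusted p under 0.05. Of the 14 macrophage markers, 9 had negative differences, 8 without overlap and 3 at an unadjusted p under 0.05, with summed levels of 26203 to 27352 in CX3CR1low and of 22424 to 23191 in CX3CR1bright cells. The other 5 macrophage markers, Fcgr1, Aif1, Cd14, Itgam and Adgre1, had positive differences, a split near that of all tested genes. The part of mast cells and of macrophage content in the receptor values was not tested. Treml1, known from platelets, differed by 0.45 ± 0.22 (limma adjusted p = 0.355). Platelet and megakaryocyte markers (6 of 9) had mean levels of 4.20 and 4.47 in CX3CR1low and of 4.37 and 4.37 in CX3CR1bright cells, with summed levels of 182 to 269 and of 227 to 232.

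Neither ligand differed clearly. Cd47, the ligand of Sirpa, was at 10.04 and 9.74 in CX3CR1low and 10.03 and 10.28 in CX3CR1bright cells, with a 95% interval of -0.28 to 0.80 for the difference. Cd200, the ligand of Cd200r1, was at 4.48 and 4.69 against 5.01 and 4.16, and its interval ran from -0.81 to 0.82. The 2 CX3CR1bright arrays of Cd200 lay on either side of both CX3CR1low arrays.

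Stap1, an adaptor with a phosphotyrosine-binding domain that acts downstream of tyrosine kinases, was the gene that passed the threshold. Its level was 6.11 and 6.23 in CX3CR1low and 8.93 and 8.67 in CX3CR1bright cells. Replicates lay 0.12 and 0.25 apart, and the subsets were 2.45 apart at their closest, with all 4 arrays well above the array median. The difference was 2.63 ± 0.20 (SE, n = 2 per subset), 6.20-fold, with an adjusted p of 0.0476 (limma), number 5 by p among all tested genes. It stayed between 2.50 and 2.78 over 13 alternative settings, but the filters, the variance models, the mean of a gene's rows and the replicate block cannot move it. With all 4 arrays, the adjusted p (limma) ran from 0.0113 with a stricter filter to 0.129 with the replicate block. The call ended without CX3CR1low replicate 1 (limma adjusted p = 0.268), CX3CR1low replicate 2 (0.341) or CX3CR1bright replicate 2 (0.104). It also ended with no filter on dim genes (limma adjusted p = 0.0587), after quantile normalization (0.0541), under a robust prior (0.0513) and with the replicate number as a block (0.129).

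On the CX3CR1bright arrays where Stap1, Lilra5 and Pilra were high, conventional dendritic cell markers (13 of 14 with a row) had mean levels of 6.33 and 6.24, against 5.46 and 5.57 on the CX3CR1low arrays. Their summed linear level was 1618 to 1884 in CX3CR1low and 1466 to 1692 in CX3CR1bright cells. Cd209a, the brightest of the list, was at 9.78 and 10.20 against 8.79 and 8.59, and weighs most in that sum. Of the 13, 10 had a positive difference and 3 a negative one, beside 42.5% positive of all tested genes. Without overlap 8 were higher and 2 lower, beside 18.9% and 31.5%. At an unadjusted p under 0.05 (limma) were 7 higher and 1 lower, beside 7.03% and 11.8%. The dendritic growth factor receptor gene Flt3 was at 4.06 and 4.58 against 6.41 and 6.50, whereas Xcr1, a marker of cross-presenting dendritic cells, was at 4.62 and 4.48 against 4.68 and 4.22. Keratinocyte, fibroblast and Langerhans cell markers were higher there too, as given above, and so was the summed level of monocyte markers. With CX3CR1bright replicate 2 left out, where keratinocyte markers were highest, the differences were 2.76 for Stap1, 2.48 for Lilra5 and 1.61 for Pilra. On the CX3CR1bright array that remained, the means of dendritic, fibroblast, Langerhans cell, keratinocyte and monocyte markers were still above those of both CX3CR1low arrays. The part of these cells in the 3 differences was not tested.

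The kinase and phosphatase genes had smaller differences, none past the threshold. Syk, the kinase that docks on phosphorylated ITAM motifs, was at 8.57 and 8.62 in CX3CR1low and at 8.17 and 8.04 in CX3CR1bright cells, without overlap, a difference of -0.49 ± 0.18 (limma adjusted p = 0.245). Ptpn6 was at 9.01 and 8.89 against 9.27 and 9.48, higher by 0.43 ± 0.19 (limma adjusted p = 0.314). Inpp5d went the other way, at 9.51 and 9.92 against 9.39 and 9.24, with -0.40 ± 0.22 (limma adjusted p = 0.403), which was -0.20 without CX3CR1low replicate 2 and -0.60 without CX3CR1low replicate 1.

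**Figure D4:**
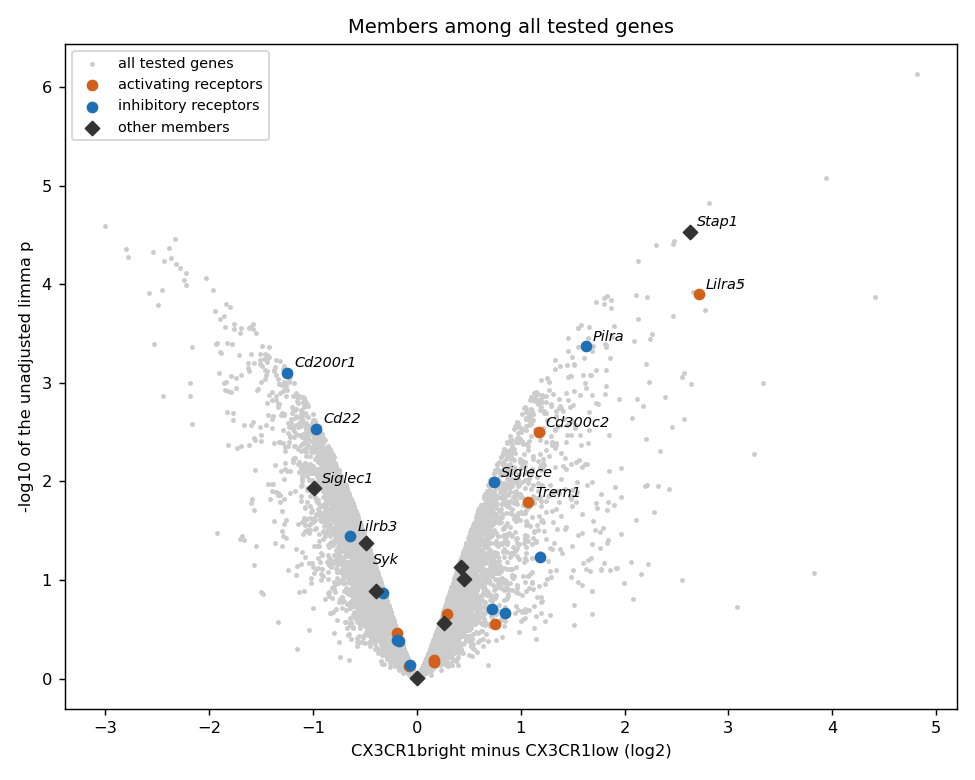
Difference between the subsets (x axis, log2, CX3CR1bright minus CX3CR1low) against -log10 of the unadjusted limma p (y axis) for all 13133 tested genes in grey, activating receptors in orange, inhibitory receptors in blue and the other listed genes as dark diamonds; genes with an unadjusted p under 0.05 are named. Stap1 and Lilra5 stand far out on the right, and Cd200r1 and Cd22 lead on the left.

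Partner genes of the receptors were described through 4 lists, in which 0 genes passed the threshold (limma). Beside the counts that follow, 42.5% of all tested genes had a positive difference, and 7.03% were higher and 11.8% lower at an unadjusted p under 0.05. Of 29 tested ITAM partners and downstream signalling genes, 19 were positive and 10 negative with a median of 0.15, and 5 were higher and 2 lower at an unadjusted p under 0.05. The shared adaptors Tyrobp and Fcer1g were near-level, at -0.11 and -0.15. The 3 genes with the smallest p were the kinase gene Src at -1.27 ± 0.20 (limma adjusted p = 0.0907), the kinase gene Ptk2b at 0.90 ± 0.23 and Malt1, a protease of NF-kB activation, at 0.77 ± 0.20.

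Of 23 tested ITIM partners and negative regulators, 7 were positive and 16 negative with a median of -0.11, and 2 were higher and 2 lower at an unadjusted p under 0.05, shares near those of all tested genes. Those with the smallest p were the phosphatase genes Inppl1, at -0.57 ± 0.18, and Ptpn22, at 0.60 ± 0.20, and the adaptor gene Sh2b3, at -0.60 ± 0.21.

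A list of further receptors gave 8 positive and 9 negative differences among 17 tested, with a median of -0.081. Siglecf, counted among the 8, was above the array median on its CX3CR1bright arrays alone. Most are of the same families, but Clec12a, Clec4a2, Slamf7, Pecam1 and Ceacam1 are not. Cd300ld3, a neighbour of the Cd300 genes above, was at 8.59 and 8.25 in CX3CR1low and 6.69 and 6.63 in CX3CR1bright cells, a difference of -1.76 ± 0.21 (limma adjusted p = 0.0632). That sign is opposite to the 1.17 of Cd300c2 in the same cluster. Clec12a, an inhibitory C-type lectin, was at 7.71 and 6.34 against 9.70 and 9.03, a difference of 2.34 ± 0.50 (limma adjusted p = 0.117). Cd200r4, an activating relative of Cd200r1, was at 5.19 and 5.20 against 4.46 and 4.27, a difference of -0.83 ± 0.19 with the same sign as Cd200r1.

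Genes that make, attach or remove sialic acid, the ligand of the Siglecs, gave 11 positive and 10 negative differences among 21 tested, with 5 at an unadjusted p under 0.05 in each direction. Slc35a1, the carrier of activated sialic acid into the Golgi, was at 3.77 and 3.77 in CX3CR1low and 4.84 and 4.79 in CX3CR1bright cells (1.04 ± 0.18, limma adjusted p = 0.0935). Its CX3CR1low levels lay just above the array medians of 3.68 and 3.65, so the difference was taken near background. Gne, the enzyme that starts sialic acid synthesis, was at 4.37 and 4.34 in CX3CR1low and at 3.50 and 3.35 in CX3CR1bright cells. Both CX3CR1bright levels were below the array median, so Gne, counted among the 5 lower genes, passed the filter through its CX3CR1low arrays alone. With that median as a floor, the mean level of Gne was at least 1.61-fold higher in CX3CR1low cells. This bound too leaves out the spread between arrays and is given without a test. The sialyltransferase gene St6galnac4 differed by -0.83 ± 0.19. Nanp, counted among the 11 positive, was at 3.51 and 3.58 against 3.82 and 3.82, and passed the filter through its CX3CR1bright arrays alone.

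**Figure D5:**
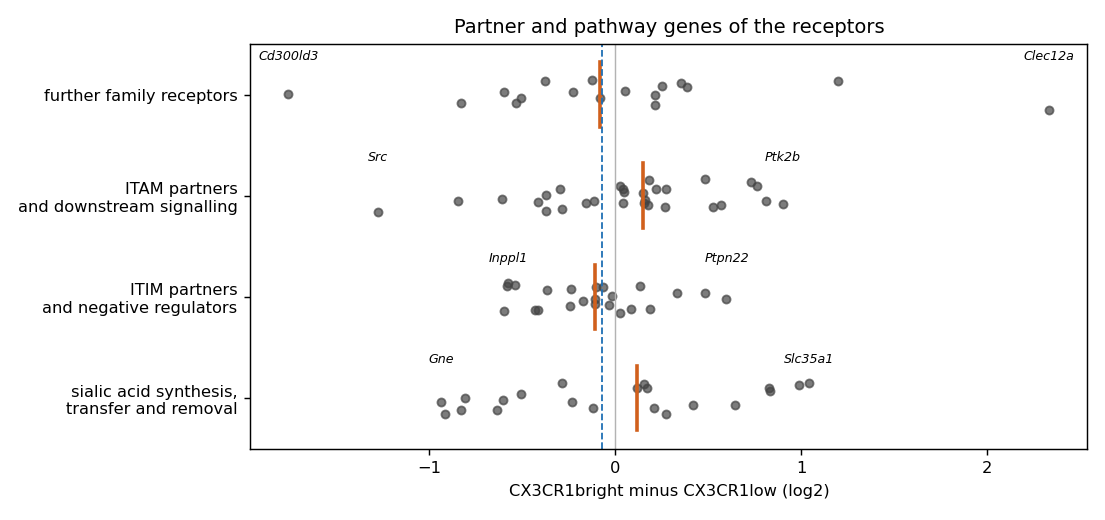
Difference between the subsets (CX3CR1bright minus CX3CR1low, log2) of each tested gene in 4 lists of partner genes, 1 point per gene with vertical jitter that carries no meaning; the orange bar is the list median, the dashed line the median of all tested genes, and the gene with the smallest p on each side is named. List medians lie between -0.11 and 0.15, with Cd300ld3 at -1.76 and Clec12a at 2.34 as the extremes.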

How the data were processed

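The authors deposited RMA values on a log2 scale, which Affymetrix Expression Console 1.4 produced according to the submitters' processing notes. Genome build: not given in the sources used here. RNA was prepared for hybridisation with a WT Pico kit, per the labels. The table held 34390 rows, of which 23521 had 1 gene symbol, and 23328 of those matched RefSeq by Entrez identifier. For a gene with several rows, the brightest by its 4-array mean was kept, and it was tested if at least 2 arrays lay above their own median. Subsets were compared in R 4.3.3 using limma 3.58.1 (lmFit, then eBayes, two-sided), with Benjamini-Hochberg adjustment over all 13133 tested genes. Where a level lay below its array median, that median was used as a floor for a fold given as at least. Such a fold compares subset means and leaves out the spread between arrays. The fit had 2 residual and 3.28 prior degrees of freedom, and the number of arrays limits the precision. The procedure was tested on simulated data. The named genes are all members, Cx3cr1 and, in each partner list, the 3 with the smallest p. Tyrobp, Fcer1g, Nanp, Siglecf, the single marker genes and the promoter words were chosen after values were seen. The members and lists were chosen with earlier results of these data known, so no test over a list is given. Alternatives were filters, normalizations, variance models, the mean of a gene's rows, a replicate block and leaving out each array.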

Additional observations from a re-analysis of the deposited data

How the results depend on the processing

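The 1 higher call among the receptors and partners (Stap1) became 0 with no filter, after quantile normalization, under a robust prior and with the replicate block, 2 after cyclic loess, 3 under an intensity trend, 4 with a stricter filter, and 0 to 2 with 1 array left out. The 0 lower calls became 1 with the stricter filter and under the intensity trend, and stayed 0 with 1 array left out. Over all tested genes the 18 calls became 1, 464, 1, 33, 308 and 1 with no filter, the stricter filter, quantile normalization, cyclic loess, intensity trend and robust prior, 0 with the replicate block (limma, 2637 at an unadjusted p under 0.05) and 0 to 154 with 1 array left out. The replicate number is not said to mark a shared litter. The replicate 1 minus replicate 2 differences of the 2 subsets had a correlation of 0.16 across genes, which are not replicates. With 2 arrays per subset, this value cannot tell whether a litter was shared. The median of activating receptors, 0.29, was 1.07 with the stricter filter, which tested fewer of them, and 0.11 to 0.71 with 1 array left out. That of inhibitory receptors, -0.12, was -0.0018 after quantile normalization and 0.0080 after cyclic loess, and the cause was not tested. Uncalled differences that changed sign were those of Cd300ld (0.032 after quantile normalization, 0.057 after cyclic loess, -0.25 to 0.11 with 1 array left out), Sirpa (0.039, 0.046, -0.14 to 0.0063), Cd200 (-0.0051 after median centring, -0.42 to 0.43), Cd300c (-0.23 to 0.55), Cd300e (-0.37 to 0.71) and Siglecg (-0.080 to 1.77). Of 368 recomputed differences of single genes, 338 kept their sign and side of the threshold. Some of these settings, namely the filters, the variance models, the mean of a gene's rows (each of these genes had 1) and the replicate block, cannot move a difference itself. The 338 thus include cases whose sign could not change. Probe intensities were not used here, so background correction was not varied.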
